A study of Mus musculus with 18 samples.

Results

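The genes described here are the matrix metalloproteinases, the Adamts and Adamtsl genes and the Timps, taken as every gene whose symbol in the platform annotation begins with Mmp or Timp and a digit or with Adamts. The rule found 49 genes of 22180 with a symbol of their own: 22 Mmp, 18 Adamts, 5 Adamtsl and 4 Timp genes. Of these, 43 passed a filter on dim signals and were tested among 16011 genes, and Mmp1a, Mmp1b, Mmp20, Mmp27, Adamts13 and Adamts19 were dim and not tested. Adamts2 and Mmp15 were not analysed here. Where a gene had several probe sets, the one with the highest mean over the arrays stood for it. RNA of sorted mouse cells was measured on 18 expression arrays in a study of where rhabdomyosarcoma, a tumor with muscle features, arises under active hedgehog signalling. All mice carried aP2-Cre and a tdTomato reporter, so every group has the Cre transgene, and Tomato marks cells in which it is or was active; aP2 is another name of Fabp4, a gene of adipocytes and endothelial cells. The tumor mice (genotype aP2-Cre/+;tdTomato/+/;SmoM2/+, strain BJ;SJL;B6.129) had in addition SmoM2, which encodes constitutively active Smoothened, the signal transducer of hedgehog. Their tumors gave Tom+/Pecam1+, Tom+/Pecam1- and Tom-/Pecam1- cells with 4 biological repeats each, repeats 1 to 3 from postnatal day 48 and repeat 4 from day 38. The muscle mice (aP2-Cre/+;tdTomato/+, strain B6;SJL, with 1 Tom+ sample labelled aP2-Cre/+;tdTomato) gave Tom+ and Tom- cells of the sternocleidomastoid, a neck muscle, at day 21, with 3 repeats each. Pecam1 is a surface protein of endothelial cells and of many leukocytes, and no Pecam1 gate is labelled for muscle. Tissues were digested with collagenase B and Dispase II before sorting, and an effect of that digestion on these genes was not tested.

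Matrix metalloproteinases are zinc proteases that cut collagens, proteoglycans and other proteins of the extracellular matrix. Most are secreted as inactive proenzymes, and the membrane-type members act at the cell surface. Adamts proteases carry thrombospondin repeats and cut proteoglycans such as versican and aggrecan, trim procollagens or act on other matrix proteins, while Adamts-like proteins have the repeats but no protease domain. Timps bind and inhibit metalloproteinases, and Timp3 is held in the matrix and also inhibits Adamts enzymes. In growing vessels and in tumors these genes are known to be shared out among endothelial cells, fibroblasts and leukocytes.

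Of the Mmp genes, 10 lie next to each other on chromosome 9, in the order Mmp13, Mmp12, Mmp1b, Mmp3, Mmp1a, Mmp10, Mmp8, Mmp27, Mmp20 and Mmp7. The promoters of 4 of them are shown because these 4 genes had some of the widest differences between the tumor populations. Each runs 5′ to 3′ on the plus strand over 300 bases around the start site, from RefSeq on GRCm38.p6. Capitals mark the letters TGANTCA, the motif of the factor AP-1, searched on both strands. The stretches are chr9:7272264-7272563 for Mmp13, chr9:7347124-7347423 for the second of 2 start sites of Mmp12, chr9:7502092-7502391 for Mmp10 and chr9:7558179-7558478 for Mmp8.
Mmp13: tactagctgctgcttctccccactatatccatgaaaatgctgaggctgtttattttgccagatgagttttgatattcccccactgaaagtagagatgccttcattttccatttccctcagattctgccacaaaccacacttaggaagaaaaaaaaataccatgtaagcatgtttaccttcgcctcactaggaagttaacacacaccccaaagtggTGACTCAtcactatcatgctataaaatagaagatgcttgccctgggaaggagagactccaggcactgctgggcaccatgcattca
Mmp12: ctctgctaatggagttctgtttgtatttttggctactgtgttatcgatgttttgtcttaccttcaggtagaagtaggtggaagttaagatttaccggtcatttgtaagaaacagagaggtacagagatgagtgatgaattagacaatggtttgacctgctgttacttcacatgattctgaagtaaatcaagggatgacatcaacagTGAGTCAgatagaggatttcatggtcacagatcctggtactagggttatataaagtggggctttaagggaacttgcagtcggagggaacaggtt
Mmp10: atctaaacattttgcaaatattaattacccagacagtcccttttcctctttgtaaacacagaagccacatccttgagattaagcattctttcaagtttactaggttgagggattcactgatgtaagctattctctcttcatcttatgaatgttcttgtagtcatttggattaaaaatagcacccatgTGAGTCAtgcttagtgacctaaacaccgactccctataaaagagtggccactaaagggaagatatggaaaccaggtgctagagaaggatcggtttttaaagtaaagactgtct
Mmp8: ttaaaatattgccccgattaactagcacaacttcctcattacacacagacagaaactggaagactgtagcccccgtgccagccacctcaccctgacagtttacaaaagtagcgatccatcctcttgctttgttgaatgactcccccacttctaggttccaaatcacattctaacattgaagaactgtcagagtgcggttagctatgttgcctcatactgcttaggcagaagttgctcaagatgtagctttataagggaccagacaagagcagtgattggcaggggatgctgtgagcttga
The motif lies 35 bases before the start site in Mmp13, 44 in Mmp12 and 63 in Mmp10, and these letters are not in the window of Mmp8 or of the first Mmp12 start site. A promoter was listed for 34 of the 49 genes. Of these, 8 held the motif, all in the chromosome 9 run (8 of 10), and 0 of the other 24 did, beside 8.97% of all 27025 genes with a promoter listed (7.81% of 32851 promoters). The TATA motif, TATAAA on either strand, which does not overlap in letters with the AP-1 motif, was in 12 of the 34, 9 of them in the run, beside 15.7% of all genes (13.6% of promoters). A match describes letters and shows no binding.

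Values are log2 intensities after each array was shifted to the same median, and each gene's differences are log2 unless given as fold. Levels of different genes rest on different probes and are not ranked against each other. A gene is said to be called when limma's moderated test gave an adjusted p under 0.05 after adjustment over 16011 genes, and the words rose, fell, higher and lower with a p refer to such calls. Arrays of a group correlated at 0.977 to 0.994 across genes. In the deposited tumor values, the mean over the 3 populations of a repeat was equal for every repeat (within 3.33e-05 for each of these genes), so variation common to the populations of a tumor is absent, and p-values of the main test tend to be too small. A second fit therefore stands beside the counts of each of the 7 comparisons: within a tissue it adds the repeat number, and between tissues it takes the spread from the muscle arrays. The spread of the tumor arrays does not enter that fit between tissues, so genes that vary more there can get p-values that are too small. The labels call the samples biological repeats without saying whether a repeat is 1 animal, and p-values measure the spread between these samples. In sorted bulk samples, fewer cells of a type and less RNA per cell cannot be told apart. The endothelial markers Pecam1, Cdh5, Kdr, Tek, Egfl7 and Tie1 averaged 10.48 to 11.33 in Tom+/Pecam1+ tumor cells, 6.23 to 6.58 in Tom+/Pecam1- cells and 5.86 to 6.56 in Tom-/Pecam1- cells, and 10.82 to 11.02 in Tom+ against 7.48 to 7.73 in Tom- muscle cells.

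In muscle, Tom+ cells had more of the inhibitors Timp4 and Timp3 and of Adamts9, Adamts18 and Mmp28, while Mmp2, Mmp14, Timp1, Timp2 and most Adamts proteases that were called were higher in Tom- cells. Of the 43 genes tested 23 were called, 5 higher and 18 lower in Tom+ cells, beside 39.4% of all genes tested (19.5% higher, 19.8% lower). The median difference was -0.31, against 0.01 over all genes. In the second fit 22 remained (32.3% of all genes), and Adamts3 (-0.82) was lost. With the repeat number as a block of these 6 arrays alone 26 were called (38.4% of all genes), all 23 and also Adamts1, Mmp9 and Mmp11.

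Timp4, an inhibitor first known from the heart, read 10.53, 11.01 and 10.55 on the arrays of Tom+ muscle cells, against 6.93, 6.44 and 5.93 on those of Tom- cells. The groups lay far apart, and Timp4 was 19.2-fold higher in Tom+ cells (SE 0.35 in log2, adjusted p = 3.01e-08). Of the other inhibitors, 1 was called higher and 2 lower. Timp1, which was at 4.9, 5.0 and 4.92 in Tom+ cells against 6.9, 6.31 and 7.04 in Tom- cells, fell by 1.81 (adjusted p = 9.48e-07). Timp2, which both inhibits Mmp2 and helps Mmp14 to activate it, was at 7.81, 7.58 and 7.87 in Tom+ cells against 10.13, 9.94 and 9.83 in Tom- cells and fell by 2.22 (adjusted p = 2.07e-09). Neither gene's groups overlapped. Timp3 was bright in both, at 11.39, 11.34 and 11.26 in Tom+ and 11.08, 10.84 and 10.65 in Tom- cells, and rose by 0.47 (adjusted p = 0.00417).

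**Figure D1:**
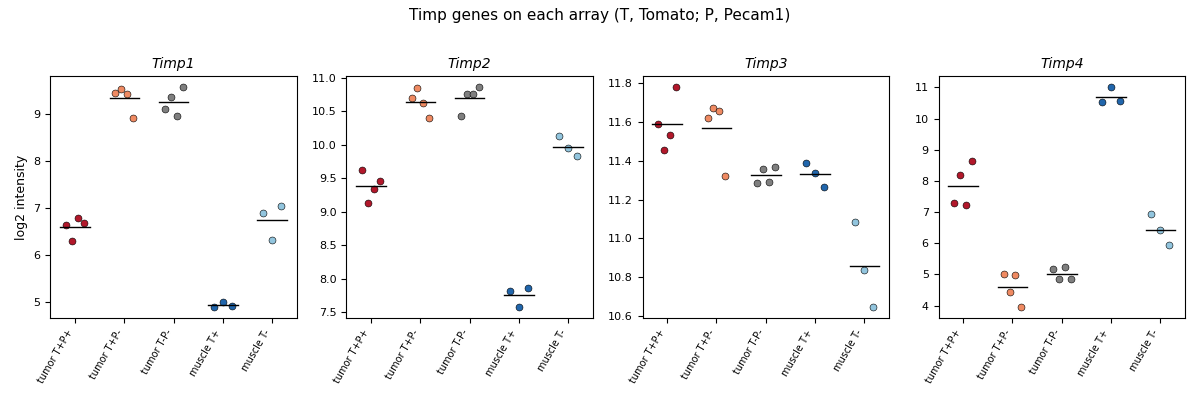
Log2 intensity (vertical axis) of the 4 Timp genes on each of 18 arrays, by sorted group (T, Tomato; P, Pecam1). Points are arrays and bars group means; Timp4 is highest in Tom+ muscle cells (10.53 to 11.01), while Timp3 stays between 10.65 and 11.78 on every array.

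Among the proteases the widest gap was that of Mmp2, a gelatinase that cuts denatured and basement membrane collagen. It read 5.83, 5.82 and 5.62 in Tom+ muscle cells and 10.71, 10.63 and 10.73 in Tom- cells, which is 30.6-fold lower (adjusted p = 4.47e-12). Mmp14, the membrane-bound collagenase that activates Mmp2, read 7.4, 6.9 and 7.32 in Tom+ cells and 9.43, 9.26 and 9.15 in Tom- cells and fell by 2.07 (adjusted p = 1.58e-07). All Tom+ arrays lay below all Tom- arrays for both genes. The other gelatinase, Mmp9, differed by -0.44 and was not called (adjusted p = 0.468), but it was with the repeat number as a block of these groups (adjusted p = 0.0386). Mmp23 fell by 1.41, the stromelysin Mmp3 by 1.51, Mmp19 by 0.91 and the membrane-type genes Mmp16 and Mmp17 by 0.98 and 0.57. Mmp28, also called epilysin, went the other way, with 5.69, 6.09 and 6.06 in Tom+ cells against 4.47, 4.69 and 4.9 in Tom- cells, and rose by 1.26 (adjusted p = 5.38e-06).

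Of the 7 tested Adamts proteases that cut proteoglycans, 1 rose and 4 fell in Tom+ muscle cells. Adamts9, which cuts versican, rose by 1.92 (9.78, 9.63 and 9.97 in Tom+ cells against 8.15, 7.59 and 7.89 in Tom- cells, adjusted p = 6.28e-08). Adamts20, a relative of Adamts9 that also cuts versican, fell by 2.82 (4.4, 4.15 and 4.26 in Tom+ cells against 6.92, 7.15 and 7.2 in Tom- cells, adjusted p = 4.92e-11). The pair thus differed in opposite directions between the muscle populations. Adamts9 was above the 40th percentile of the arrays (4.69 to 4.76) in both, while Adamts20 lay under it in Tom+ cells. Adamts5, an aggrecan- and versican-cutting enzyme, fell by 2.12 (adjusted p = 5.37e-04), Adamts8 by 1.32 and Adamts15 by 1.29, while Adamts1 (0.65, adjusted p = 0.151) and Adamts4 (-0.16) were not called. Adamts14, which removes the amino-terminal propeptide of fibrillar procollagens, fell by 1.52, and Adamts12, which cuts the cartilage protein Comp, fell by 1.83. Adamts18 rose by 1.18 (4.84, 5.02 and 5.38 in Tom+ cells against 4.06, 3.85 and 3.8 in Tom- cells). Its Tom- values lay under the 40th percentile of the arrays, so this is a difference from a dim signal. Only arrays of Tom+ muscle and Tom+/Pecam1+ tumor cells reached that percentile for Adamts18, so it passed the filter through them. Of the Adamts-like genes, Adamtsl1 fell by 1.95 and Adamtsl5 by 0.75. Beside these genes, the 5 fibroblast markers averaged 5.49 to 6.3 in Tom+ cells against 10.8 to 10.9 in Tom- cells, the myogenic ones 5.59 to 5.99 against 8.84 to 9.15 and the pericyte and smooth muscle ones 8.19 to 9.56 against 10.54 to 10.63; their part in the differences was not tested.

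**Figure D2:**
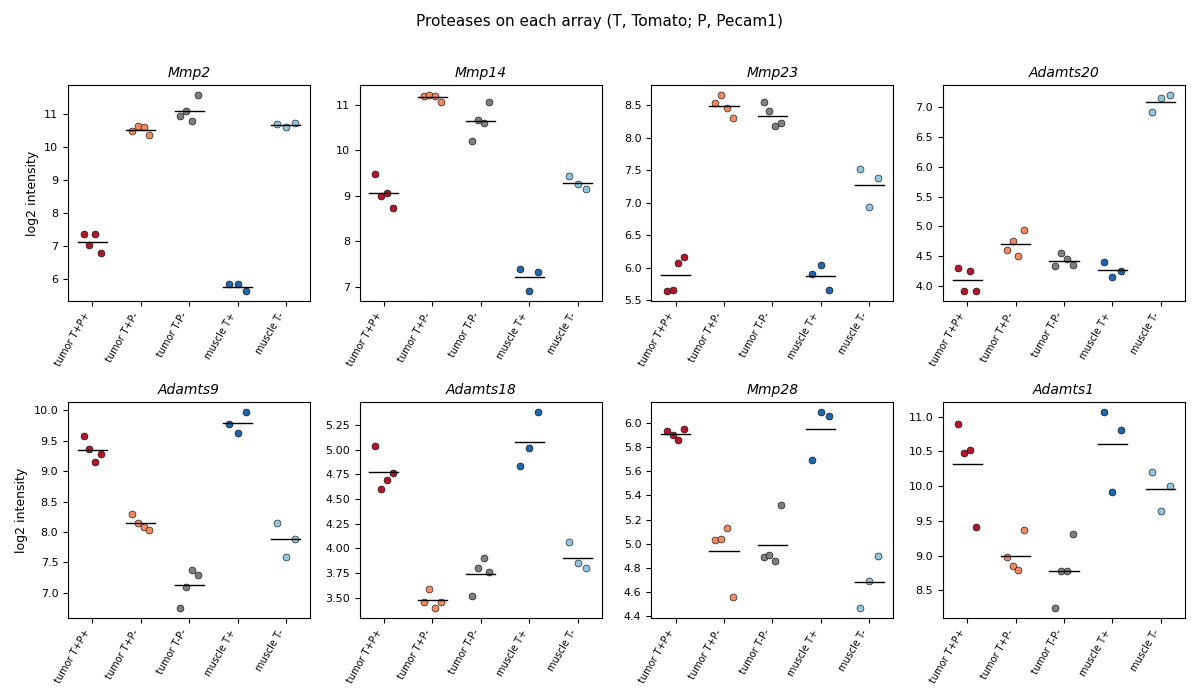
Log2 intensity (vertical axis) of 8 proteases on each of 18 arrays, by sorted group (T, Tomato; P, Pecam1); points are arrays and bars group means. Mmp2 lies between 10.38 and 11.59 in Tom+/Pecam1- and Tom-/Pecam1- tumor and in Tom- muscle cells and between 5.62 and 7.35 in the other groups, while Adamts20 lies between 6.92 and 7.2 in Tom- muscle cells and between 3.91 and 4.94 in the other groups.

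In tumors, Tom+/Pecam1- cells were set against Tom-/Pecam1- cells. Mmp8, Mmp9, Mmp12, Mmp13 and Mmp25 were among the genes lower in the Tom+ cells, Mmp10, Adamts9, Adamts10 and Adamts14 were higher, and no Timp was called. Of 43 genes 15 were called, 5 higher and 10 lower, beside 25% of all genes tested (13.2% higher, 11.8% lower), and the median difference was -0.05 against 0.03 over all genes. The second fit kept 12 (16.7% of all genes) and lost Mmp2, Mmp14 and Adamtsl3, and with the repeat number as a block of these 8 arrays alone 5 were called (11.4% of all genes).

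Mmp8, the collagenase of neutrophils, read 3.57, 3.3, 5.09 and 4.8 in Tom+/Pecam1- cells of repeats 1 to 4, against 8.98, 9.43, 6.01 and 6.31 in Tom-/Pecam1- cells (-3.49, adjusted p = 8.41e-04). Every Tom- array lay above every Tom+ array, but repeats 1 and 2 were farther apart than repeats 3 and 4. The Tom+ values lay around or under the 40th percentile of the arrays (4.69 to 4.76), so the difference is against a dim signal. Within a repeat, where a removed repeat mean cancels, the differences were -5.41, -6.13, -0.92 and -1.5 for repeats 1 to 4. Mmp9, the gelatinase stored in neutrophil granules, had differences of -3.32, -3.11, -0.55 and -0.9 in the same order (-1.97 on average, adjusted p = 0.00107). Mmp25, a membrane-anchored protease of neutrophils, had -2.06, -2.39, -0.68 and -0.73 (-1.46, adjusted p = 3.03e-04). All 3 proteases thus had their larger gaps in repeats 1 and 2. Among neutrophil markers, the growth factor receptor Csf3r had within-repeat differences of -2.91, -3.02, -1.55 and -1.22 and the chemokine receptor Cxcr2 -3.38, -3.54, -1.83 and -1.71, with larger gaps in repeats 1 and 2. Retnlg had -6.09, -6.63, -1.86 and -5.12, so that its repeat 4 lay near repeats 1 and 2. S100a8 had -6.63, -5.24, -5.35 and -6.21 and S100a9 -5.26, -3.94, -3.79 and -4.29, and neither split the repeats that way. The 5 neutrophil markers averaged 4.63 to 5.37 in Tom+/Pecam1- cells against 8.25 to 9.48 in Tom-/Pecam1- cells, the 5 macrophage markers 8.05 to 8.66 against 9.12 to 10.1 and the 4 mast cell markers 3.76 to 4.15 against 7.27 to 7.93. Their part in these differences was not tested. The pan-leukocyte markers averaged 6.96 to 7.38 in Tom+ against 8.56 to 9.72 in Tom- cells.

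Mmp12, the elastase of macrophages, read 6.2, 6.94, 6.49 and 6.58 in Tom+/Pecam1- cells against 9.01, 8.08, 8.56 and 6.86 in Tom-/Pecam1- cells (-1.57, adjusted p = 0.00625). Mmp13, a collagenase of several cell types, read 4.5, 4.94, 4.62 and 5.28 in Tom+ against 7.45, 7.0, 7.04 and 5.04 in Tom- cells (-1.8, adjusted p = 0.00415). For both genes repeats 1 to 3 were apart, while the repeat 4 values lay close together, with within-repeat differences of -0.28 for Mmp12 and 0.23 for Mmp13, and the groups overlapped. Mmp10, a stromelysin, went the other way, with 8.05, 7.17, 8.17 and 5.77 in Tom+/Pecam1- cells against 4.82, 5.93, 4.78 and 6.03 in Tom-/Pecam1- cells (1.9, adjusted p = 0.00356). Its difference was 3.23, 1.24, 3.39 and -0.26 in repeats 1 to 4, so repeat 4 again stood apart. Repeat 4 is the only one from day 38, and age and repeat cannot be told apart. In Tom-/Pecam1- cells repeat 4 also read lowest for each of the 5 macrophage markers, with Adgre1 at 8.23 beside 9.11 to 9.49 in repeats 1 to 3. A part of these markers in the repeat 4 values was not tested. Mmp12, Mmp13 and Mmp10 lie in the chromosome 9 run, and the promoters shown for them carry the AP-1 motif. Mmp10 was called higher and Mmp12 and Mmp13 lower in Tom+/Pecam1- cells, and a part of the motif in these calls was not tested. Their calls, with those of Mmp8 and Mmp9, held in the second fit but not with the block of these 8 arrays alone (adjusted p = 0.0546 for Mmp12, 0.0597 for Mmp9, 0.0630 for Mmp8, 0.0690 for Mmp13 and 0.101 for Mmp10).

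**Figure D3:**
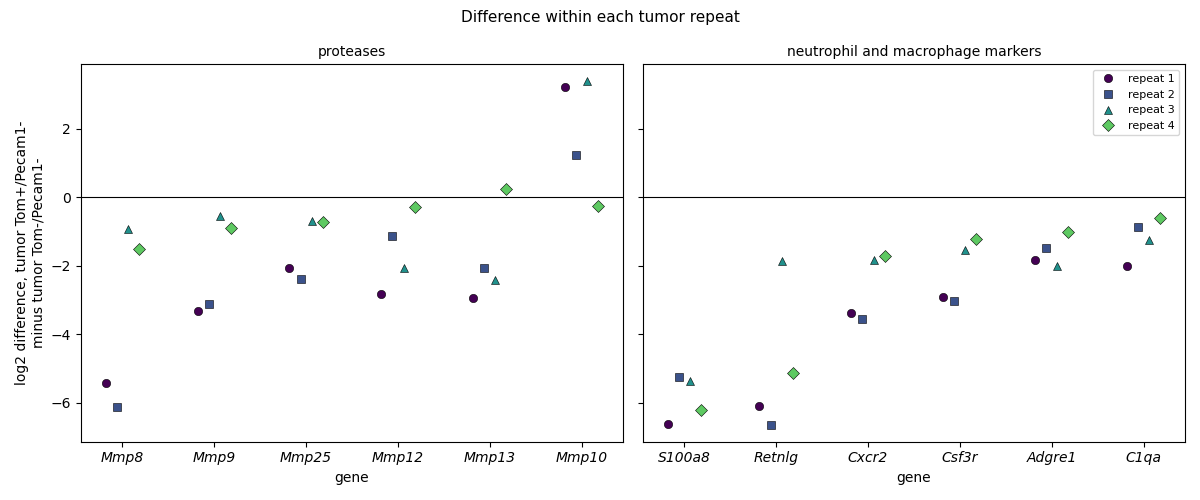
Log2 difference (vertical axis) of Tom+/Pecam1- minus Tom-/Pecam1- tumor cells within each of 4 repeats, for 6 proteases (left) and 6 leukocyte markers (right); each symbol is 1 repeat. Mmp8, Mmp9 and Mmp25 have their largest gaps in repeats 1 and 2, and repeat 4 lies near 0 for Mmp12, Mmp13 and Mmp10.

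The other called genes of this comparison differed less. Adamts9 read 8.3, 8.15, 8.08 and 8.03 in Tom+ cells against 6.74, 7.09, 7.38 and 7.3 in Tom- cells and rose by 1.01 (adjusted p = 1.03e-04). Adamts14 read 6.68, 6.32, 6.57 and 7.0 in Tom+ against 5.91, 6.14, 5.81 and 5.73 in Tom- cells and rose by 0.74 (adjusted p = 4.06e-04, and 0.0505 with the block of these groups). Adamts10, a protease tied to fibrillin microfibrils, rose by 0.75 (adjusted p = 5.71e-04), and no array of these 3 genes overlapped with the other group. Lower in Tom+ cells were Mmp16 (by 1.14, adjusted p = 2.44e-05), the procollagen peptidase Adamts3 (by 1.13, adjusted p = 0.00223), which lost its call with the block (adjusted p = 0.0825), and Mmp3 (by 0.61, adjusted p = 0.0158). Without the repeat 4 arrays Adamts3 fell by 0.7. In Tom+ cells Mmp16 (4.47 to 4.66), Adamts3 (3.65 to 4.36) and Mmp3 (3.96 to 4.35) were dim, under the 40th percentile of the arrays (4.69 to 4.76). Mmp2 (-0.58), Mmp14 (0.53) and Adamtsl3 (-0.8) were called in the main fit only, with adjusted p = 0.0509, 0.0845 and 0.118 in the second. Mmp2 differed by -0.37 without the repeat 4 arrays. Mmp14 also lost its call without any 1 of the arrays of repeats 1 to 3 of either group (adjusted p = 0.0522 to 0.117). Adamtsl3 lost its call without any 1 of the 4 Tom-/Pecam1- arrays or of repeats 2 and 4 of Tom+/Pecam1- cells (adjusted p = 0.0564 to 0.141), and differed by -0.53 without repeat 4 of Tom+/Pecam1- cells. The Timps differed by 0.08 for Timp1 (95% interval -0.28 to 0.44), -0.06 for Timp2 (-0.33 to 0.21), 0.24 for Timp3 (0.02 to 0.46) and -0.42 for Timp4 (-1.06 to 0.22). None was called, although Timp3 was without repeat 4 of Tom+/Pecam1- cells (adjusted p = 0.0323). Myogenic markers averaged 8.71 to 9.23 in Tom+ against 6.83 to 8.09 in Tom- cells, and tenocyte markers 6.79 to 7.21 against 8.27 to 9.02; their part was not tested.

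The endothelial cells of the tumors, sorted as Tom+/Pecam1+, had more Timp4, Adamts9, Adamts1, Adamts18 and Mmp28 than either Pecam1-negative population, and less Mmp2, Mmp14, Mmp23, Mmp19, Mmp11, Timp1 and Timp2. Against Tom+/Pecam1- cells 29 of 43 genes were called, 8 higher and 21 lower (44.1% of all genes, 20.1% higher and 24% lower), and the second fit kept 26 of them (36% of all genes), without Adamts6, Adamts7 and Mmp13. With the repeat number as a block of these groups 28 were called (32.4% of all genes), without Adamts6 and Adamtsl3 and with Adamts4. Against Tom-/Pecam1- cells 32 were called, 9 higher and 23 lower (41.2% of all genes, 19.7% higher and 21.4% lower), and the second fit also called 32 (33.8% of all genes), 30 of them shared, without Adamts16 and Adamts20 and with Adamts4 and Adamtsl4. With the block of these groups 26 were called (22.6% of all genes), without Adamts5, Adamts8, Adamts16, Adamts20, Adamtsl2 and Mmp25. The median difference was -0.26 against Tom+/Pecam1- cells and -0.39 against Tom-/Pecam1- cells, with medians over all genes of -0.01 and 0.01. The comparisons share the Tom+/Pecam1+ arrays and are not independent.

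Timp4 read 7.28, 8.18, 7.24 and 8.66 in Tom+/Pecam1+ cells, against 5.02, 4.45, 4.99 and 3.96 in Tom+/Pecam1- cells and 5.18, 4.84, 5.23 and 4.84 in Tom-/Pecam1- cells. It was 9.41-fold higher than in Tom+/Pecam1- cells (adjusted p = 1.1e-07) and 7.04-fold higher than in Tom-/Pecam1- cells (adjusted p = 7.1e-07). The Tom+/Pecam1- values lay around or under the 40th percentile of the arrays (4.69 to 4.76), so the first fold is against a dim signal. No array of the endothelial cells overlapped with the others. Timp1 read 6.63, 6.3, 6.78 and 6.69 in Tom+/Pecam1+ cells, against 9.44, 9.52, 9.42 and 8.91 and 9.11, 9.35, 8.96 and 9.56 in Tom+/Pecam1- and Tom-/Pecam1- cells, and fell by 2.72 (adjusted p = 6.53e-10) and 2.64 (adjusted p = 1.03e-09) against them. Timp2 fell by 1.26 and 1.32 in the same comparisons. Timp3 differed by 0.02 (95% interval -0.2 to 0.24) against Tom+/Pecam1- cells and by 0.26 (adjusted p = 0.0525) against Tom-/Pecam1- cells and was called in neither; without repeat 2 of Tom+/Pecam1+ cells the second passed (adjusted p = 0.0402), as it did with quantile normalization (adjusted p = 0.0194).

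Mmp2 read 7.35, 7.02, 7.35 and 6.77 in Tom+/Pecam1+ cells, against 10.48, 10.64, 10.61 and 10.38 in Tom+/Pecam1- cells, and was 10.6-fold lower (adjusted p = 8.5e-12); against Tom-/Pecam1- cells it fell by 3.98 (adjusted p = 1.59e-12). Mmp14 fell by 2.1 against Tom+/Pecam1- cells and by 1.57 against Tom-/Pecam1- cells. Mmp23, a protease whose precursor is held in the membrane, read 5.64, 5.66, 6.08 and 6.17 in Tom+/Pecam1+ cells against 8.54, 8.65, 8.45 and 8.31 in Tom+/Pecam1- cells and fell by 2.6 (adjusted p = 1.82e-10). The 3 proteases separated the endothelial cells without overlap. Mmp19 fell by 1.8 and 1.84 and Mmp11, also called stromelysin-3, by 1.65 and 1.79 against Tom+/Pecam1- and Tom-/Pecam1- cells. Mmp28, the one Mmp that rose in both, did so by 0.97 and 0.92. Mmp8 (0.12) and Mmp9 (0.07) were not called against Tom+/Pecam1- cells but fell by 3.37 and 1.9 against Tom-/Pecam1- cells. Mmp12 fell by 2.03 and 3.6, although repeat 4 of Tom+/Pecam1+ cells read 5.76 beside 4.01 to 4.19 in repeats 1 to 3. Mmp10 fell by 2.18 against Tom+/Pecam1- cells (adjusted p = 4.8e-04), where repeat 4 differed by 0.21 and repeats 1 to 3 by -3.13, -2.48 and -3.33. Macrophage markers averaged 5.77 to 7.01 in Tom+/Pecam1+ cells, 8.05 to 8.66 in Tom+/Pecam1- and 9.12 to 10.1 in Tom-/Pecam1- cells, and fibroblast markers 5.86 to 6.46, 9.85 to 10.7 and 10.3 to 10.7 in the same order; their part was not tested.

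Among the Adamts proteases, Adamts9 read 9.58, 9.37, 9.14 and 9.28 in Tom+/Pecam1+ cells and rose by 1.21 (adjusted p = 2.35e-06) against Tom+/Pecam1- cells and by 2.22 (adjusted p = 1.13e-09) against Tom-/Pecam1- cells. The 3 tumor populations thus formed a series without overlap between neighbours. Adamts1, which cuts versican and aggrecan, read 10.89, 10.48, 10.51 and 9.41 in Tom+/Pecam1+ cells against 8.98, 8.84, 8.8 and 9.37 in Tom+/Pecam1- and 8.25, 8.78, 8.78 and 9.31 in Tom-/Pecam1- cells, and rose by 1.33 and 1.55. In repeat 4 its 3 values lay within 9.31 to 9.41. Adamts18 rose by 1.3 and 1.03, from values under the 40th percentile of the arrays in Tom+/Pecam1- and Tom-/Pecam1- cells (3.39 to 3.9). In Tom+/Pecam1+ cells it read 4.61 to 5.03, near that percentile (4.69 to 4.76). Adamts7, another protease of Comp, rose by 0.5 and 0.98. The first of these calls of Adamts7 was lost in the second fit (adjusted p = 0.0698) and without any 1 of repeats 1, 2 and 3 of Tom+/Pecam1+ cells or repeats 1, 2 and 4 of Tom+/Pecam1- cells (adjusted p = 0.0544 to 0.115). Adamts5 (-1.92 and -1.44), Adamts12 (-0.84 and -0.93), Adamts14 (-1.46 and -0.72) and Adamts15 (-1.2 and -0.92) fell, of which the second call of Adamts5 was lost with the block of these groups. The Adamts-like genes were split. Adamtsl1 rose by 0.92 and 0.89 and Adamtsl2, whose product binds fibrillin, by 1.0 and 0.92, while Adamtsl3 fell by 1.0 and 1.8 and Adamtsl5 by 0.99 and 0.88. The rise of Adamtsl2 against Tom-/Pecam1- cells was lost with the block of these groups (adjusted p = 0.0757). For Adamts8, the probe set used differed by 0.56 and 0.87 and its other probe set by -0.19 and -0.13 in these comparisons, so its call against Tom-/Pecam1- cells rests on 1 of 2 probe sets.

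Tumor and muscle populations differ in age, strain and animals besides the tumor itself, and array processing may differ too, so none of these can be told apart from the tissue. On the deposited scale the tumor arrays were brighter by 0.33 to 0.35 at the median, and differences are given after that shift was removed. The Tom+/Pecam1+ cells of tumors had more Timp1, Timp2, Mmp14 and Mmp2 and less Timp4 than the Tom+ cells of muscle. Of 43 genes 15 were called, 10 higher and 5 lower, beside 34.2% of all genes tested (15.7% higher, 18.5% lower), so the share of 34.9% lay near that of all genes. The median difference was 0.0, against -0.03 over all genes. The second fit also called 15 (28.4% of all genes), of which 13 were shared, without Adamts9 and Mmp17 and with Adamts5 and Mmp12. Adamts5 and Mmp12 had an SD of 0.91 and 0.82 in the tumor cells, which this fit leaves out, against 0.14 and 0.13 in muscle. With the repeat number as a block 13 were called (23.8% of all genes), without Adamts9, Adamtsl3 and Mmp17 and with Adamts4. On the deposited scale 16 were higher and 1 lower, where 8444 of all 16011 genes were called.

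Timp4 read 7.28, 8.18, 7.24 and 8.66 in tumor Tom+/Pecam1+ cells against 10.53, 11.01 and 10.55 in muscle Tom+ cells and was 7.25-fold lower (adjusted p = 6.58e-06). Timp1 was at 6.63, 6.3, 6.78 and 6.69 in tumor against 4.9, 5.0 and 4.92 in muscle and rose by 1.66 (adjusted p = 4.98e-06). Timp2 was at 9.62, 9.12, 9.33 and 9.46 in tumor against 7.81, 7.58 and 7.87 in muscle and rose by 1.63 (adjusted p = 3.18e-07). None of these groups overlapped. Mmp14 was 3.63-fold higher (9.48, 8.99, 9.06 and 8.72 in tumor against 7.4, 6.9 and 7.32 in muscle, adjusted p = 1.45e-06) and Mmp2 2.58-fold higher (7.35, 7.02, 7.35 and 6.77 in tumor against 5.83, 5.82 and 5.62 in muscle, adjusted p = 1.03e-05). Adamts8 rose by 1.89 (0.62 in its other probe set), Adamtsl1 by 1.72, Adamtsl2 by 1.66 and Adamts6 by 0.95 (adjusted p = 0.00154). Mmp16 (-0.6), Adamts16 (-0.59), Adamtsl3 (-0.85) and Adamts9 (-0.45) were called lower, and all 4 calls were lost on the deposited scale (adjusted p = 0.170, 0.190, 0.165 and 0.627). Adamts9 lost its call too without any 1 of repeats 1 and 3 of muscle Tom+ cells or repeats 2, 3 and 4 of tumor Tom+/Pecam1+ cells (adjusted p = 0.0541 to 0.147), and Adamtsl3 without any 1 of repeats 2 and 3 of muscle or repeats 1 and 3 of tumor (adjusted p = 0.0895 to 0.0993). Timp3 differed by 0.26 and was not called (adjusted p = 0.0860), and by 0.61 on the deposited scale (adjusted p = 3.6e-04). Mmp9 differed by -0.86 to 0.86 (95% interval). Endothelial markers averaged 10.48 to 11.33 in the tumor and 10.82 to 11.02 in the muscle cells, pericyte and smooth muscle markers 7.62 to 8.14 and 8.19 to 9.56 and fibroblast markers 5.86 to 6.46 and 5.49 to 6.3. Of the pericyte and smooth muscle markers 4 of 5 were called lower in tumor (median -1.14), and of the fibroblast markers Dcn and Lum, 2 of 5, higher; their part was not tested.

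In the Pecam1-negative tumor cells the inhibitor Timp1, Mmp14, Mmp12 and Mmp13 were higher than in Tom- muscle cells, and Adamts20 and Timp4 were lower. Against Tom- muscle cells, for which no Pecam1 gate is labelled, 28 genes were called in Tom-/Pecam1- tumor cells, 16 higher and 12 lower (48.7% of all genes, 23.8% higher and 24.9% lower), and 25 in Tom+/Pecam1- tumor cells, 14 higher and 11 lower (47.1% of all genes, 24.1% higher and 23% lower). The median differences were 0.26 and 0.02, against -0.02 and 0.01 over all genes. The second fit called 31 and 28 (43.3% and 42% of all genes), among them all 28 of the first and 23 of the second, without Adamtsl4 and Mmp24. Blocking on the repeat number gave 26 and 22 calls (39.8% and 38.3% of all genes), without Adamts17, Mmp2 and Mmp25 but with Adamtsl4 in the first and without Mmp11, Mmp21 and Mmp25 in the second. On the deposited scale the split was 23 higher and 7 lower, and 20 higher and 6 lower. On that scale 9408 and 9737 of all 16011 genes were called in these comparisons. Both comparisons share the muscle arrays.

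Timp1 read 9.11, 9.35, 8.96 and 9.56 in Tom-/Pecam1- tumor cells and 9.44, 9.52, 9.42 and 8.91 in Tom+/Pecam1- tumor cells, against 6.9, 6.31 and 7.04 in Tom- muscle cells. It was 5.63-fold (adjusted p = 2.72e-08) and 5.95-fold (adjusted p = 1.25e-08) higher, with no overlap. Timp2 rose by 0.73 and 0.67 and Timp3 by 0.47 and 0.71, while Timp4 fell by 1.41 and 1.83. Without muscle repeats 1 and 2 Timp4 differed by -0.91 in Tom-/Pecam1- tumor cells (adjusted p = 0.184). Endothelial markers averaged 5.86 to 6.56 in Tom-/Pecam1- and 6.23 to 6.58 in Tom+/Pecam1- tumor cells against 7.48 to 7.73 in Tom- muscle cells, and their part in the Timp4 difference was not tested.

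Mmp12 read 6.86 to 9.01 in Tom-/Pecam1- and 6.2 to 6.94 in Tom+/Pecam1- tumor cells, against 3.68, 3.87 and 3.69 in Tom- muscle cells. Every tumor array lay above every muscle array, and Mmp12 was 20.8-fold (adjusted p = 3.72e-07) and 7.0-fold (adjusted p = 3.91e-05) higher in the tumor cells. Mmp13 rose by 3.31 (adjusted p = 1.6e-05) and 1.51 (adjusted p = 0.0114). In muscle both genes lay under the 40th percentile of their arrays, 4.69 to 4.76, so these are differences from a dim signal. No muscle array, Tom+ or Tom-, reached that percentile for them, so both genes passed the filter through tumor arrays, where they are high. Mmp8 rose by 3.08 (adjusted p = 0.00168) and Mmp9 by 1.46 (adjusted p = 0.00734) in Tom-/Pecam1- cells and neither was called in Tom+/Pecam1- cells (-0.41 and -0.51), though the second fit called both there. That fit leaves out the tumor spread, and Mmp8 read 3.3 to 5.09 in Tom+/Pecam1- cells (SD 0.89, against 0.09 in Tom- muscle cells). Mmp8 read 4.52 to 4.7 in Tom- muscle cells, around that percentile, so its rise too is from a dim signal. Mmp10 rose in Tom+/Pecam1- cells by 2.11 (adjusted p = 0.00134). Neutrophil markers averaged 8.25 to 9.48 in Tom-/Pecam1- and 4.63 to 5.37 in Tom+/Pecam1- tumor cells against 6.42 to 7.32 in Tom- muscle cells, and macrophage markers 9.12 to 10.1 and 8.05 to 8.66 against 7.32 to 7.42; their part was not tested.

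Mmp14 was 2.55-fold and 3.69-fold higher in Tom-/Pecam1- and Tom+/Pecam1- tumor cells (adjusted p = 1.56e-05 and 3.83e-07), and Mmp23 rose by 1.06 and 1.21. Its partner Mmp2 differed less: it was called in Tom-/Pecam1- cells (0.42, adjusted p = 0.0454) but not in Tom+/Pecam1- cells (-0.16, 95% interval -0.51 to 0.19). The call was lost without any 1 of the muscle arrays or of repeats 2 and 4 of the tumor cells (adjusted p = 0.0739 to 0.146), and the difference was 0.26 without repeat 4. Adamts6 rose by 1.2 and 1.32 and Adamts10 by 0.5 and 1.25. Adamts20 read 4.33 to 4.55 in Tom-/Pecam1- and 4.49 to 4.94 in Tom+/Pecam1- tumor cells against 6.92, 7.15 and 7.2 in Tom- muscle cells, and was 6.36-fold (adjusted p = 2.68e-10) and 5.26-fold (adjusted p = 4.19e-10) lower. The tumor values lay around or under the 40th percentile of the arrays, so these folds are against a dim signal and no exact ratio. It was bright in that muscle population alone of the 5. Adamtsl1 fell by 1.13 and 1.15, Adamts1 by 1.18 and 0.95, Adamts12 by 0.63 and 0.72 and Mmp3 by 0.64 and 1.24 in Tom-/Pecam1- and Tom+/Pecam1- cells. In Tom-/Pecam1- cells Adamts5 (-1.37), Adamts14 (-1.03) and Adamts9 (-0.75) also fell, and in Tom+/Pecam1- cells Mmp16 (-1.08) and Mmp25 (-0.68). Mmp3 in Tom-/Pecam1- cells lost its call without muscle repeat 1 (-0.37, adjusted p = 0.0829). In Tom+/Pecam1- cells Adamts1 lost its call without any 1 of repeats 1 and 3 of muscle or repeat 3 of tumor (adjusted p = 0.0510 to 0.0832), and Mmp25 without any 1 of the muscle arrays or of repeats 1, 2 and 4 of tumor (adjusted p = 0.0506 to 0.111). On the deposited scale the calls of Mmp3 in Tom-/Pecam1- cells and of Adamts1 and Mmp25 in Tom+/Pecam1- cells were lost too (adjusted p = 0.181, 0.101 and 0.258).

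**Figure D4:**
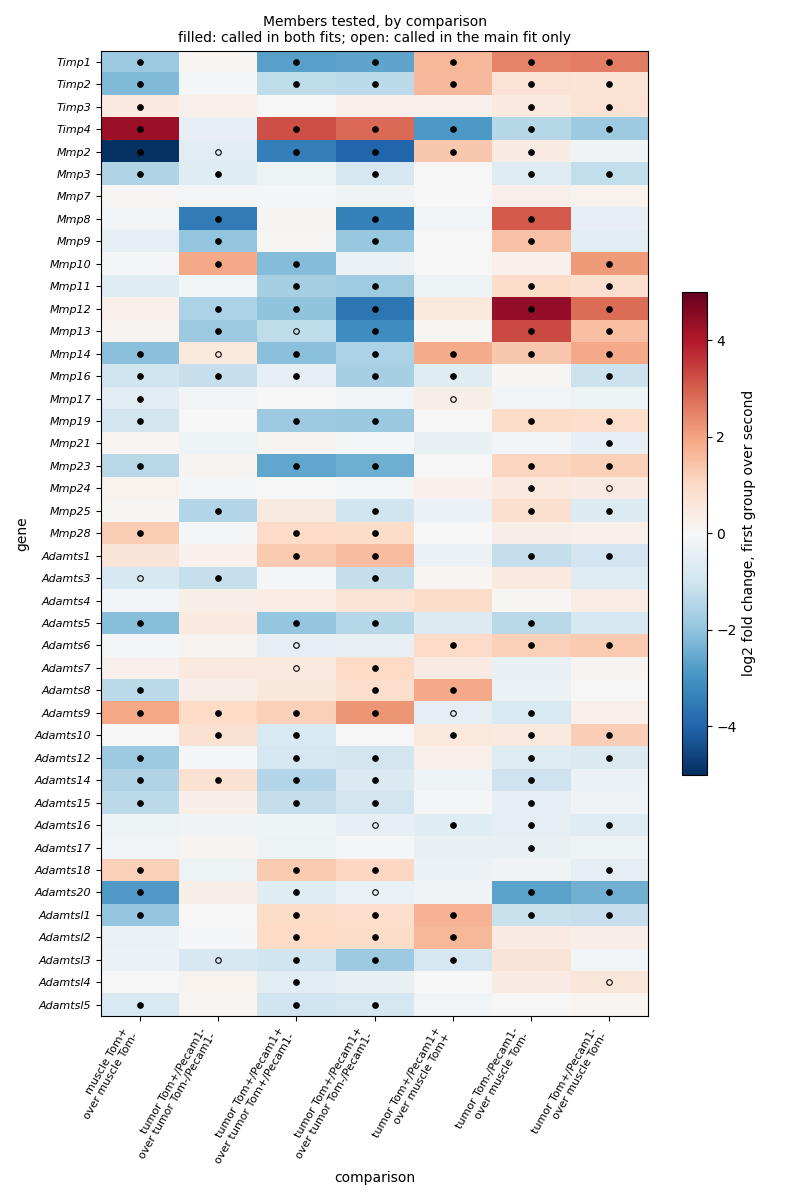
Log2 fold change (colour) of the 43 tested genes (rows) in 7 comparisons (columns), first group over second. Filled circles mark calls in both fits and open circles calls in the main fit only; Timp4, Adamts9, Adamts18 and Mmp28 are red and Mmp2, Mmp14, Mmp23, Timp1 and Timp2 blue in muscle Tom+ over Tom- and in both tumor Tom+/Pecam1+ comparisons within the tumor.

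Whether the Tomato mark went with the same change in both tissues was tested as the difference of 2 contrasts, Tom+/Pecam1- minus Tom-/Pecam1- in tumor, less Tom+ minus Tom- in muscle. It was called for 27 of 43 genes, 18 above and 9 below 0, beside 39% of all genes, and for 22 with the repeat number as a block (30.9% of all genes). For Mmp2 the contrast was -0.58 in tumor and -4.93 in muscle, a difference of 4.36 (adjusted p = 5.3e-10), and for Timp4 -0.42 and 4.26, a difference of -4.68 (adjusted p = 4.26e-07). Opposite calls were found for 2 genes. Adamts14 was 0.74 in tumor and -1.52 in muscle (difference 2.26, adjusted p = 7.29e-08), and 0.38 and -0.69 in its other probe set. Mmp14 was 0.53 in tumor and -2.07 in muscle (difference 2.61, adjusted p = 4.42e-07), of which the tumor call was lost in the second fit. With the repeat number as a block of these tumor groups alone, the tumor calls of Adamts14 and Mmp14 were both lost (adjusted p = 0.0505 and 0.0934). The muscle Tom+ cells, with their high endothelial markers, have no labelled Pecam1 gate while the tumor cells of this contrast were sorted as Pecam1-, and gate and tissue cannot be told apart.

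Over the 5 groups, 14 of the tested genes had their highest mean in Tom-/Pecam1- tumor cells, 10 in Tom- muscle cells, 8 in Tom+/Pecam1- tumor cells, 6 in Tom+ muscle cells and 5 in Tom+/Pecam1+ tumor cells. Mmp7 (matrilysin) lay between 4.56 and 5.13 on all arrays and was called in 0 of 7 comparisons. Adamts4, which ranged from 5.66 to 7.93, was called in 0 of 7 in the main fit. It was called in Tom+/Pecam1+ against Tom-/Pecam1- tumor cells by the second fit (0.68, adjusted p = 0.0448) and, with the repeat number as a block, against Tom+/Pecam1- tumor cells (0.38, adjusted p = 0.0409) and against muscle Tom+ cells (0.9, adjusted p = 0.0252). Adamts17 read 5.45 to 6.25 and Mmp24 5.39 to 6.25 on all arrays. The 6 dim genes stayed low in every group, Mmp1a at 2.54 to 3.02, Mmp1b at 2.58 to 3.18, Mmp20 at 3.45 to 3.89, Mmp27 at 4.11 to 4.73, Adamts19 at 3.79 to 4.66 and Adamts13, the protease of von Willebrand factor, at 4.02 to 5.14.

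The genes that act on or are cut by these proteases were followed in lists. Of 16 tested activators and brakes of metalloproteinases, 2 rose and 8 fell in muscle Tom+ cells, 2 and 6 in tumor Tom+/Pecam1+ against Tom+/Pecam1- cells and 1 and 5 in tumor Tom+/Pecam1- against Tom-/Pecam1- cells, where 39.4%, 44.1% and 25% of all genes were called. The second fit called 10, 8 and 4 of the list, and the block of the groups compared 2 in the last of these. Reck, a membrane-anchored inhibitor, fell by 1.56 in muscle Tom+ cells and by 1.86 in tumor Tom+/Pecam1+ against Tom+/Pecam1- cells, and Lrp1, a receptor that clears proteases and their complexes, fell by 3.09 and 3.89. Plat, the tissue plasminogen activator, rose by 0.87 in tumor Tom+/Pecam1- against Tom-/Pecam1- cells, where Plaur, the urokinase receptor, fell by 1.13. Against muscle, 6 rose and 1 fell in tumor Tom+/Pecam1+, 7 and 2 in Tom-/Pecam1- and 7 and 3 in Tom+/Pecam1- cells (34.2%, 48.7% and 47.1% of all genes), and the second fit called 8, 10 and 9. Thbs1 and Thbs2, thrombospondins that bind metalloproteinases, rose in all 3, Thbs1 by 1.87, 2.13 and 1.37 and Thbs2 by 1.75, 1.55 and 1.07.

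Of 18 other matrix-processing proteases, 5 rose and 10 fell in muscle Tom+ cells (39.4% of all genes called; 13 of the list in the second fit), with Adam15 (2.15) and the procollagen C-proteinase relative Tll1 (2.19) up and the enhancer Pcolce2 (-3.56) and Htra3 (-2.8) down. In tumor Tom+/Pecam1+ against Tom+/Pecam1- cells 4 rose and 11 fell (44.1% of all genes; 14 in the second fit), with Adam15 (2.19) and Tll1 (2.25) up again. In tumor Tom+/Pecam1- against Tom-/Pecam1- cells 1, Bmp1 (0.63), rose and 9 fell, with Adam8 (-1.71), a protease of leukocytes, and cathepsin S, Ctss (-1.24), among the lowest. There 25% of all genes were called, and of the list 8 in the second fit and 5 with the block. Of 15 substrates 3 rose and 9 fell in muscle Tom+ cells (39.4% of all genes), with Vwf (2.95) up and the collagens Col1a1 (-4.23) and Col3a1 (-4.75) down. The second fit called 11 (32.3% of all genes). In tumor Tom+/Pecam1+ against Tom+/Pecam1- cells 4 substrates rose and 10 fell (12 in the second fit), with Vwf at 4.19 and Fbn2, a fibrillin, at -4.35. There 44.1% of all genes were called (36% in the second fit). In Tom+/Pecam1- against Tom-/Pecam1- cells 2 rose and 1, Comp (-1.91), fell (2 in the second fit), where 25% of all genes were called (16.7% in the second fit). Against muscle, substrates split 5 to 0 in Tom+/Pecam1+, 7 to 1 in Tom-/Pecam1- and 7 to 1 in Tom+/Pecam1- tumor cells. These are of 15 tested, beside 34.2%, 48.7% and 47.1% of all genes called, and the second fit called 7, 9 and 8. Eln, elastin, rose in all 3 (1.72, 1.39 and 1.12).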

How the data were processed

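RNA of sorted cells was made into labelled cDNA and measured on 18 arrays. The authors deposited log2 values per probe set, made with RMA and handled in Partek, per the submitters' processing notes; the versions and the array build are not given in the sources used here. Of its 41345 probe sets, the platform annotation gives 1 symbol for 23521, more for 1814 and no symbol for 16010. A gene took its brightest probe set by mean over the arrays; 4 of the 49 genes had more than 1. Arrays have no read depth; precision is limited by how many arrays there are.

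Each array was shifted so that its median equalled the common 5.31 (muscle medians 5.04 to 5.10, tumor 5.41 to 5.44). Genes entered the tests when their value was above the array's 40th percentile on 3 or more arrays. The moderated test of limma (version 3.58.1, under R 4.3.3) was fitted to the 18 arrays together, a mean for each group, with 13 degrees of freedom from residuals and 3.9 from the prior, two-sided, with Benjamini-Hochberg adjustment within a comparison. Figures used Python 3.11.15, matplotlib 3.10.9 and pandas 2.3.3.

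In muscle, same-numbered arrays deviated together from their group means (r = 0.27 to 0.31 over 3 pairs, other pairs -0.19 to -0.09), so they shared some variation. Deviations from a group mean add up to 0, so the other pairs turn negative when these are positive. The labels do not say that the numbers pair the samples. In tumor, equal repeat means make same-numbered arrays deviate oppositely (r = -0.72 to -0.17) and the check is void. On simulated data with 200 of 16011 genes changed (10 runs), 16.9% of calls were false in muscle, 18.2% in tumor Tom+/Pecam1- against Tom-/Pecam1- cells and 40.2% in tumor Tom-/Pecam1- against muscle Tom- cells. In the second fits, added after this was seen, the shares were 5.09%, 5.46% and 5.81%, and 2-fold changes were recovered in 70%, 79.1% and 47% of genes. The planned block of the groups compared gave 2.69% in muscle and 3.55% in tumor, and recovered 4.93% and 56.9% of 2-fold changes. In the data, 39.4%, 25% and 48.7% of genes were called in these comparisons, far more than the simulation changed. Both shares depend on that number, so they describe the simulation and not the calls reported here. The genes and lists were chosen with earlier results of these data known. The Timps, Mmp2, Mmp9 and Mmp14 were to be named throughout, and in each comparison up to 8 called genes at either end of the fold changes, genes with opposite Tomato contrasts, and the 4 genes of a list with the smallest adjusted p. Others named were chosen after their values were seen. Of the lists, Plg, Spock3, Tll2 and Bcan were dim and not tested, and some other genes are not reported here.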

Additional observations from a re-analysis of the deposited data

Results flagged for a closer look

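In groups of 4 arrays, 1 array stood apart from the other 3 in 10 of 129 groups checked, where chance alone flags about 1 in 20. The highest or lowest array's gap to its neighbour was then over 0.829 of the group's range. Of the 10, 8 were repeat 4, the one from postnatal day 38. In Tom+/Pecam1+ tumor cells, repeat 4 read 5.76 for Mmp12 beside 4.01 to 4.19 on the other arrays and 4.68 for Mmp13 beside 3.07 to 3.35. In Tom+/Pecam1- cells, repeat 4 was the lowest for Mmp17 (5.35), Mmp19 (7.63), Timp1 (8.91) and Timp3 (11.32). In Tom-/Pecam1- cells, repeat 4 was the highest for Mmp28 (5.32) and Adamtsl4 (7.69), repeat 3 for Adamts17 (6.03) and repeat 1 for Adamtsl3 (7.77). Since the 3 populations of a repeat share a mean, an array set apart in one shifts the others of that repeat the opposite way, so these flags are not independent.

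For 2 genes the Tomato contrast was called in opposite directions in tumor and muscle and the difference was called. It was 2.26 for Adamts14 and 2.61 for Mmp14, as tumor minus muscle, and the tumor call of Mmp14 was lost in the second fit. With the repeat number as a block of the tumor groups compared alone, both tumor calls were lost (adjusted p = 0.0505 and 0.0934).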

How the results depend on the processing

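Alternatives were the deposited values without the shift, quantile normalization, no filter or a filter at the 60th percentile, the mean of all probe sets, array weights, a variance that is trended and robust, a stricter adjusted p (0.01), a fit restricted to the compared groups, a minimum change of 2-fold, blocking on the repeat number, leaving out arrays, and the 2 second fits, which were chosen after the data were seen. Counts of called genes are given in the order tumor Tom+/Pecam1- against Tom-/Pecam1-, tumor Tom+/Pecam1+ against Tom+/Pecam1- and against Tom-/Pecam1-, tumor Tom+/Pecam1+ against muscle Tom+, and tumor Tom-/Pecam1- and Tom+/Pecam1- against muscle Tom-. With at least a 2-fold change they were 9, 18, 20, 8, 14 and 13. With the repeat number as a block, 5 genes were called in tumor Tom+/Pecam1- against Tom-/Pecam1- cells; the block lets the numbers pair the samples, and it moved no other count of calls by over 1.5 times. Without muscle repeats 1 and 2, which leaves 1 array per muscle group assumed to vary like the others, 16 and 15 were called in tumor Tom-/Pecam1- and Tom+/Pecam1- against muscle Tom- cells. Leaving out 1 array at a time gave 13 to 15, 26 to 30, 30 to 32, 13 to 15, 24 to 27 and 20 to 25, and 22 to 23 in muscle. Other counts of called genes stayed within 1.5 times. For single genes 2208 values kept direction and side of the threshold, 91 lost the call, 12 gained it and 0 called values reversed. The cause of these changes was not tested. Dim probes, such as those of Mmp12 and Mmp13 in muscle, limit what fold changes mean there.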
